A study of Mus musculus with 171 samples.

Results

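The genes described here are 9 mouse genes of tight junctions and cell adhesion: the claudins Cldn4, Cldn6 and Cldn7, occludin (Ocln), the scaffold Tjp1 (ZO-1), the junctional adhesion molecule F11r (JAM-A), the cadherins Cdh1 and Cdh2, and Epcam. They are 9 of the 49671 gene rows of a single-cell RNA sequencing count table, found by matching Ensembl identifiers to symbols, and all 9 were in the table. Cldn6 was chosen on its higher level in EPI than in ICM in these same cells. Its ICM and EPI values are therefore a description with no test, and it was tested only between the genotypes in PrE, whose values did not enter the choice. The other 8 were named as junction and adhesion genes, with earlier results of these data known.

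Cells came from mouse embryos at E3.5 (inner cell mass, ICM) and E3.75 (epiblast, EPI, and primitive endoderm, PrE). MUT embryos were Stat3 -/- and WT embryos were Stat3 +/+. The groups held 5 MUT embryos with 55 ICM cells and 5 WT embryos with 64 ICM cells. At E3.75 they held 4 MUT embryos with 9 EPI and 14 PrE cells, and 3 WT embryos with 19 EPI and 10 PrE cells. The sources used here give neither the strain nor the Stat3 allele nor how the cells were taken. The embryo is the replicate and was read from the first number of the title, a reading that no label spells out. Whether embryos came from separate litters is not stated either, so p-values measure the spread between these embryos only. Summing the counts of each embryo within a lineage gave 24 sums, and 2 of them (MUT EPI of embryo 2 and WT PrE of embryo 3) are single cells. In a sum, fewer cells with a transcript and less of it per cell cannot be told apart.

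A tight junction seals the space between epithelial cells. Claudins and occludin span the membrane, F11r sits beside them, and Tjp1 ties them to the actin cytoskeleton. E-cadherin (Cdh1) holds the cells of the early embryo together from compaction onwards, N-cadherin (Cdh2) marks neural and mesenchymal cells later, and Epcam is an epithelial surface protein that binds claudins, Cldn7 among them. In the blastocyst the outer layer, the trophectoderm, builds the tight junctions that allow the cavity to fill, whereas the ICM and its derivatives lie inside. STAT3 transmits the signal of the cytokine LIF to the nucleus.

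Stat3 itself was low in the libraries labelled MUT. It averaged 6.28 ± 5.57 CPM in MUT ICM and 70.7 ± 25.0 CPM in WT ICM (SD, n = 5 each), where CPM is the count over the TMM-scaled library size, times 1000000. It averaged 8.77 ± 12.4 CPM in MUT EPI (n = 4) and 134 ± 42.5 CPM in WT EPI (n = 3), and 12.7 ± 5.80 CPM in MUT PrE and 91.6 ± 59.2 CPM in WT PrE. Cells held 163822 to 25095390 counts. Depth differed with stage, with medians of 3404703 counts in MUT ICM and 5064704.5 in WT ICM cells. In the E3.75 groups the medians were 10407966 (MUT EPI) to 11168799 (MUT PrE). The cells at E3.75 carry a source label that names E3.5, and their stage was taken from the title. The title also carries a letter, A to C at E3.75 and D to H at E3.5, whose meaning the sources used here do not give, so stage and letter cannot be told apart. At E3.75, letter A holds 2 MUT embryos and 1 WT embryo, letter B only MUT embryos and letter C only WT embryos, so letter and genotype are partly confounded there. By the deposited counts, 4 of 4 MUT embryos and 1 of 3 WT embryos at E3.75 were male, as were 1 of 5 MUT and 3 of 5 WT embryos at E3.5.

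The lineage labels were checked against 10 epiblast and 12 primitive endoderm markers. The summed epiblast markers exceeded the summed endoderm markers in 9 of 9 MUT EPI cells, 19 of 19 WT EPI cells, 0 of 14 MUT PrE cells and 3 of 10 WT PrE cells. In the ICM they did so in 25 of 55 MUT cells and 53 of 64 WT cells. By these sums 3 of 10 WT PrE cells go against their label, and leaving out cell 7 of embryo 1 does not remove them all. The highest summed epiblast markers of a WT PrE embryo were 2377 CPM with that cell and 3220 CPM without it. Cell 7 of WT PrE embryo 1 goes against its label on single genes. It had 0.934 CPM each of Gata4 and Sox17, which define primitive endoderm, where the other 9 WT PrE cells had at least 194 CPM of Gata4 and at least 269 CPM of Sox17. Pdgfra, Col4a1, Lama1, Lamb1 and Cubn were also below those 9 cells, whereas Gata6, Sox7, Foxa2, Col4a2 and Dab2 lay within their range. Cell 7 had 99.4 CPM of Cdx2, 141 CPM of Elf5, 5848 CPM of Krt8 and 3514 CPM of Krt18. These are trophectoderm genes, and each value was the highest of all cells. Gata3, Gata2, Krt19, Id2 and Fabp3 were highest in it too, whereas Eomes, Krt7, Tfap2c and Tead4 ranked 3, 4, 11 and 59. The same cell was the highest of all cells in Cldn4 (1757 CPM), Cldn7 (1276 CPM), Epcam (2510 CPM) and Cdh1 (708 CPM), and it is 1 of 3 cells in its sum. Most member sums and edgeR member differences of WT PrE that it moves are given with and without it. Lineage averages, unadjusted counts, counts without overlap, gene list calls and medians, covariate refits, DESeq2, limma-trend and shares of cells include it.

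**Figure D1:**
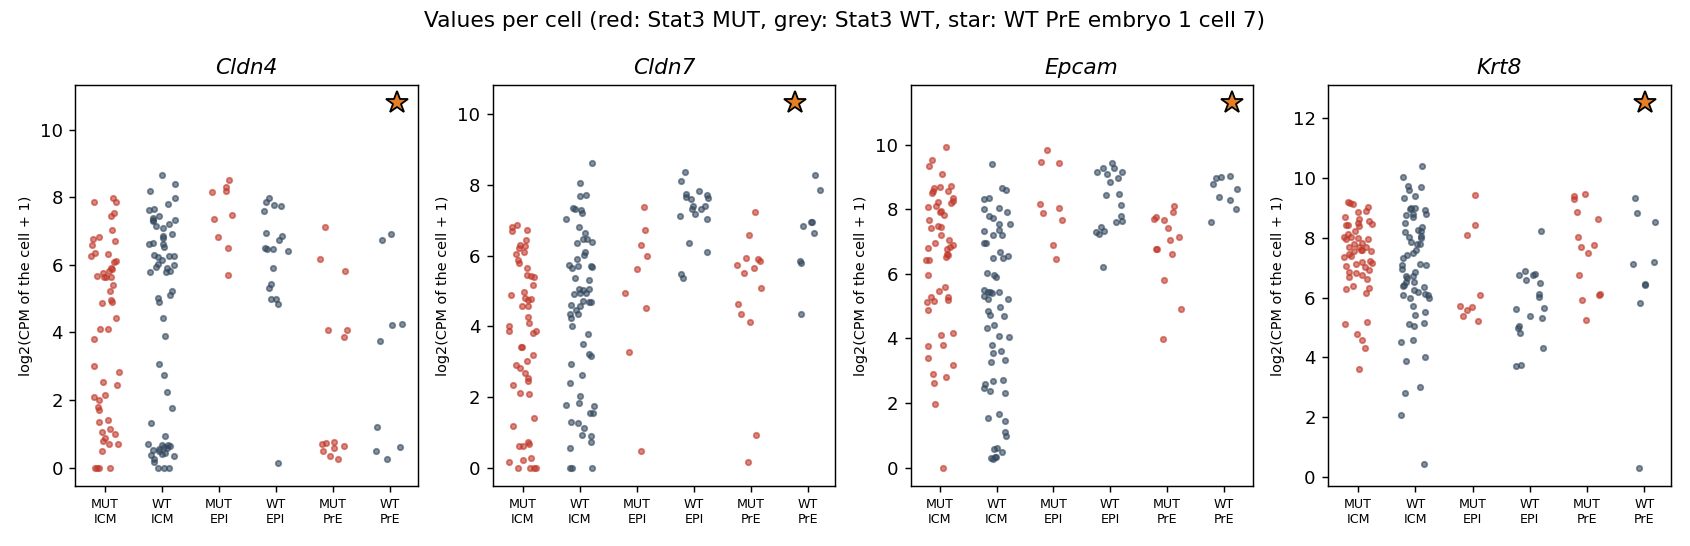
Level per cell of Cldn4, Cldn7, Epcam and the trophectoderm keratin Krt8 as log2(CPM of the cell + 1), 1 point a cell, in the 6 groups with MUT (red) left of WT (grey). The star is cell 7 of WT PrE embryo 1, the highest of all cells in all 4 genes.

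The promoters of 4 members are shown because Cldn4, Cldn7 and Epcam are 3 of the 4 members with an unadjusted p under 0.05 between the genotypes in EPI or PrE, Cldn6 is the member chosen on its level, and the genotypes differ in Stat3. Sequences are from RefSeq (GRCm38.p6), and windows of 7 members were searched, Cdh1 and Cdh2 not among them. Each window runs from 250 bases before to 50 bases after a RefSeq start of the gene, 5′ to 3′ on the gene's strand. Capitals mark matches to the STAT motif TTCNNNGAA or to the E-box CAGGTG of Snail and Zeb factors, both read on either strand, so that the E-box can appear as CACCTG. A motif of TFAP2 factors, GCCNNNGGC, was searched as well and had no match in these 4. Cldn4 lies at chr5:134946885-134947184 (minus strand), Cldn6 at chr17:23679115-23679414, Cldn7 at chr11:69965171-69965470 and Epcam at chr17:87635729-87636028 (plus strand).
Cldn4: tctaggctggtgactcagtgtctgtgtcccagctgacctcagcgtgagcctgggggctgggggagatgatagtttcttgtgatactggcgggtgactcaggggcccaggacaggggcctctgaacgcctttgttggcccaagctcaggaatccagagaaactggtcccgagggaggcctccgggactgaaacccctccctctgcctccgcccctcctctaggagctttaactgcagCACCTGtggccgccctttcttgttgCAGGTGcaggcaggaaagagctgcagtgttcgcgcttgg
Cldn6: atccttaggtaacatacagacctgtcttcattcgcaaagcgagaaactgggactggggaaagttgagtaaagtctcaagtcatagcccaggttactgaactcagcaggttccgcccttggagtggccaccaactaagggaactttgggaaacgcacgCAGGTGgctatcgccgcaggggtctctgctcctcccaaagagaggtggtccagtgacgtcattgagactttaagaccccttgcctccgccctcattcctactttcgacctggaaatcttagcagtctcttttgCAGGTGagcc
Cldn7: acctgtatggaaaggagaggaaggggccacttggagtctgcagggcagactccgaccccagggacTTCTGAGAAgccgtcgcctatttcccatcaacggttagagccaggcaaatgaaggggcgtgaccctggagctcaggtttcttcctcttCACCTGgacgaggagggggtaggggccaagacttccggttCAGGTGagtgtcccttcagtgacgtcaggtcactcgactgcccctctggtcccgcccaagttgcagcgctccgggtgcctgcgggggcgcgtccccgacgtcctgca
Epcam: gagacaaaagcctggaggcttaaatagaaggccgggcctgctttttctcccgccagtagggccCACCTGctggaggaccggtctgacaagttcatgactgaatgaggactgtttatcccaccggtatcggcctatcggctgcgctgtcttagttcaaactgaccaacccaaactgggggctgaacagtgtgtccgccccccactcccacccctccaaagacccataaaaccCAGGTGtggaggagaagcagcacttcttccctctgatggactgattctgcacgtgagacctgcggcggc

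Each of the 4 windows held 2 matches to the E-box. At least 1 match occurs in 20.2% of all 32851 promoters of this length, and the share with 2 was not counted. Of the other members searched, F11r held 1 match, the windows of Ocln 1 and 2, and Tjp1 none. The Cldn7 window held a match to the STAT motif, TTCTGAGAA, which 8.3% of promoters hold. That window lies inside the annotated gene. RefSeq has another Cldn7 start, whose window at chr11:69964529-69964828 spans the annotated gene start (69964779) and held none of the 3 motifs. F11r, Tjp1 and the Ocln window with 2 E-boxes held a TFAP2 match, which occurred in 16.6% of promoters. A match describes the letters and does not show binding.

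The 9 genes differed widely in level. Per kilobase of exon, and averaged over the 6 group means, Epcam was highest at 125 CPM per kb, followed by F11r at 93.7, Cldn4 at 68.3, Cdh1 at 55.4, Cldn7 at 50.1 and Cldn6 at 40.2. Ocln followed at 10.4 CPM per kb, Tjp1 at 3.76 and Cdh2 at 0.915. The order within the first 6 is not fixed, since their group means spread over ranges that overlap (43.3 to 285 CPM per kb for Epcam, 1.11 to 84.1 for Cldn6). Cdh2 was the lowest of the 9 on this scale, with group means of 0.1802 to 1.92 CPM per kb. Without cell 7 the WT PrE means of Cldn4, Cldn7 and Epcam fall to 42.3, 102 and 391 CPM, against 242, 239 and 625 CPM with it.

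**Figure D2:**
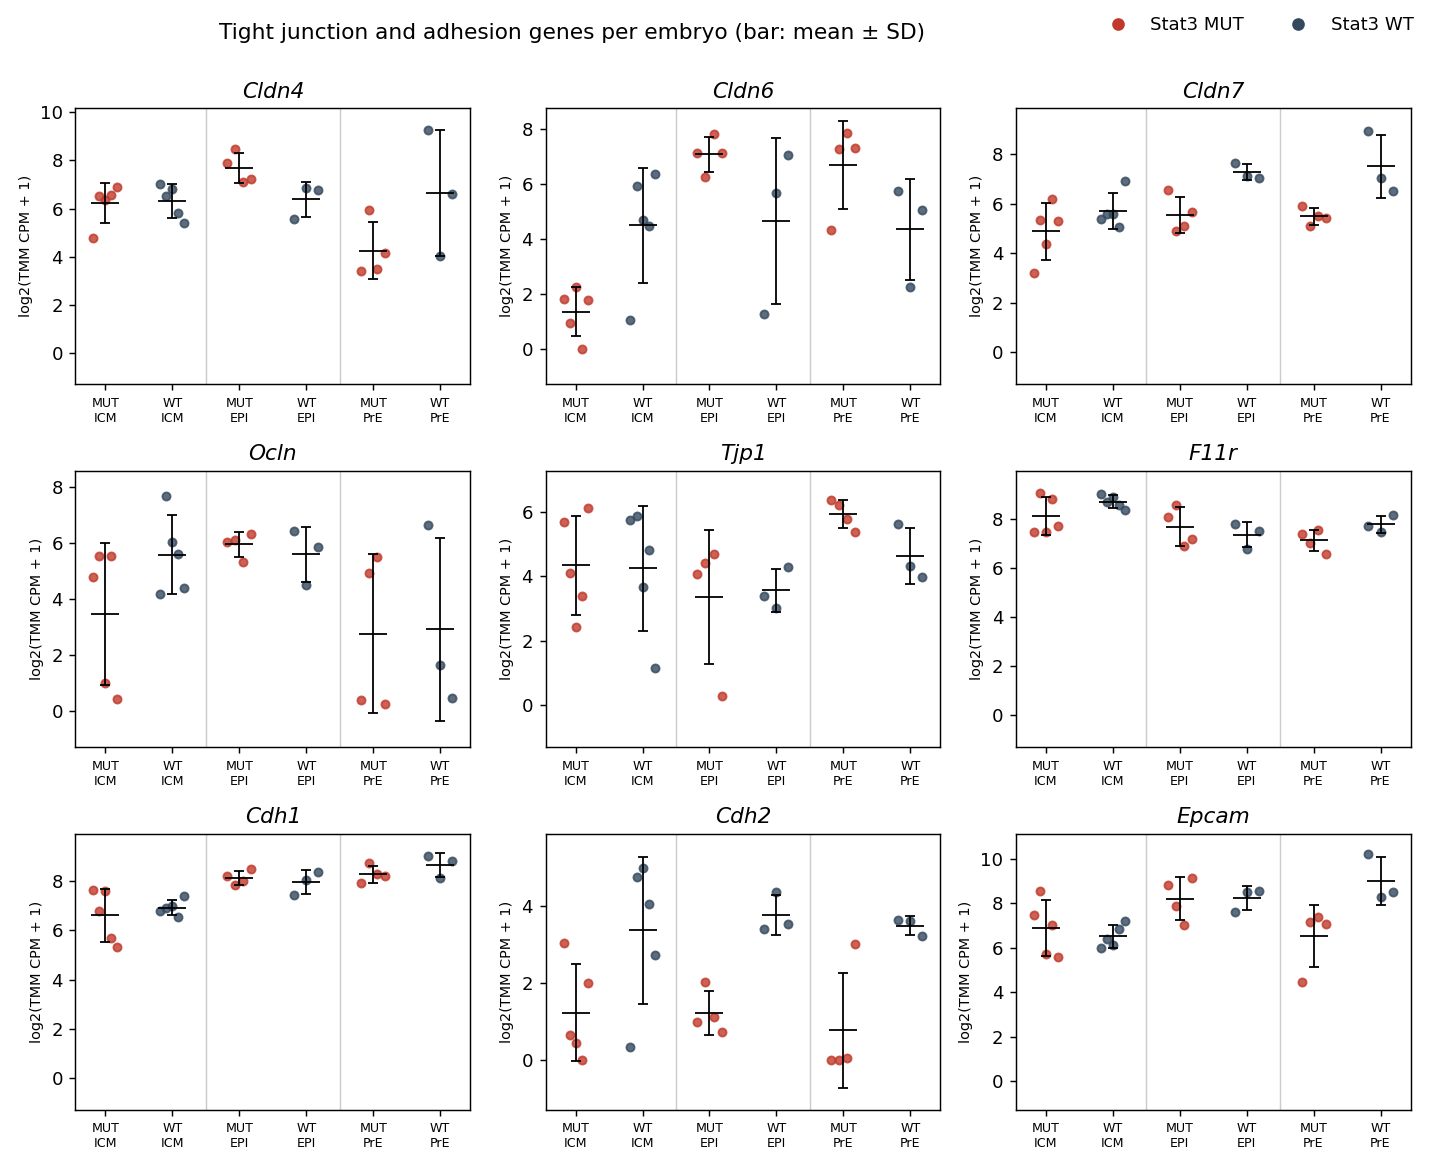
Level of each of the 9 genes as log2(TMM CPM + 1), 1 point an embryo, in ICM, EPI and PrE with MUT (red) left of WT (grey); bars are the mean ± SD over embryos. Cdh1 averages more in all EPI and PrE groups than in both ICM groups, while Cldn6 in MUT ICM does not exceed 3.70 CPM.

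The change with stage was clearest for the cadherin Cdh1. It averaged 273 ± 64.0 CPM in EPI (n = 7) and 121 ± 54.4 CPM in ICM (n = 10), with 172 to 360.3 CPM in EPI embryos and 38.7 to 202 CPM in ICM embryos. Those ranges overlap only at their ends. The log2 difference was 1.17 (SE 0.30), with an adjusted p of 0.0498 by edgeR's quasi-likelihood test. This call is at the threshold, and it was lost in 14 of 17 refits without 1 embryo, where the adjusted p reached 0.116. Cdh1 was the only 1 of 8 members tested that passed, beside 1.99% of all genes.

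In PrE, Cdh1 averaged 361 ± 106 CPM (n = 7), against 121 ± 54.4 CPM in ICM. All 7 PrE embryos, at 240.2 to 525 CPM, lay above all 10 ICM embryos. The log2 difference was 1.59 (SE 0.30, edgeR adjusted p = 0.00614) and was kept in all 17 refits without 1 embryo, and without cell 7 it was 1.53 (adjusted p = 0.00702). F11r, the junctional adhesion molecule, went the other way, with 178 ± 60.3 CPM in PrE and 365 ± 138 CPM in ICM. Its log2 difference was -1.02 (SE 0.27, edgeR adjusted p = 0.0423), and -1.10 without cell 7 (adjusted p = 0.0362). It was lost in 13 of 17 refits without 1 embryo, with an adjusted p of up to 0.0952. These were 2 of 8 members, 1 higher and 1 lower, beside 3.77% of all genes. In limma-trend on cell means, where cells count equally, F11r differed by -0.50 (adjusted p = 0.222) and was not called.

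The 7 EPI embryos held 109.6 to 382 CPM of F11r, and the 10 ICM embryos held 174 to 530.0 CPM. The EPI over ICM difference of F11r was -0.84 (SE 0.32, edgeR adjusted p = 0.174) and did not pass. Epcam averaged 329 ± 153 CPM in EPI and 126 ± 99.3 CPM in ICM, a log2 difference of 1.39 (SE 0.39, edgeR adjusted p = 0.0675). DESeq2 gave Epcam 1.42 with an adjusted p of 0.00989. The groups overlapped, since MUT ICM embryo 18 held 379.7 CPM and MUT EPI embryo 4 held 129.8 CPM.

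Among the claudins, Cldn4 averaged 165 ± 104 CPM in EPI and 83.9 ± 33.5 CPM in ICM, a log2 difference of 0.82 with an edgeR adjusted p of 0.272. Cldn7 averaged 96.3 ± 63.4 CPM in EPI and 46.8 ± 31.4 CPM in ICM, a difference of 0.96 with an edgeR adjusted p of 0.235. In PrE over ICM, Cldn7 differed by 1.16 (edgeR adjusted p = 0.164), and by 0.57 without cell 7. Cldn4 differed by -0.12 in PrE over ICM and by -1.39 without cell 7 (edgeR adjusted p = 0.124), and Epcam by 1.15 and by 0.80 without cell 7 (edgeR adjusted p = 0.456). None of these passed in edgeR. Ocln, Tjp1 and Cdh2 did not pass in edgeR either, at 0.63, -1.14 and -0.44 in EPI over ICM and -0.68, 0.55 and -0.44 in PrE over ICM. Without cell 7 the last 3 were -2.21, 0.60 and -0.34. At an unadjusted p under 0.05 edgeR passed 5 of 8 members in EPI over ICM beside 17% of all genes, and 3 of 8 in PrE over ICM beside 19.6%. DESeq2 called 2 of 8 beside 10% and 2 of 8 beside 13.3%, and limma-trend on cell means 5 of 8 beside 23.5% and 4 of 8 beside 21.5%. Over all genes tested the median log2 difference was -0.10 in EPI over ICM and -0.12 in PrE over ICM, against 0.72 and 0.22 over the 8 members, all in edgeR. Without cell 7 the PrE over ICM medians were -0.13 over all genes and 0.12 over the members. In limma-trend the medians over all genes were 0.46 and 0.36, against 2.16 and 1.02 over the 8 members. Its calls ran mostly one way, with 3522 genes higher and 175 lower in EPI over ICM and 3087 higher and 263 lower in PrE over ICM. All 5 members it called in EPI over ICM and all 4 in PrE over ICM were higher. Cells of the ICM were also shallower than those of EPI and PrE at the median, and the part of depth in these calls was not tested.

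The values that chose Cldn6 are these. It had 138, 75.9, 224 and 140.3 CPM in MUT EPI embryos 1, 2, 4 and 5, and 1.41, 49.6 and 131 CPM in WT EPI embryos 1, 2 and 3. In the ICM it had 2.52, 0.908, 3.70, 0 and 2.46 CPM in MUT embryos 10, 18, 2, 23 and 24, and 1.06, 59.2, 24.5, 21.02 and 82.3 CPM in WT embryos 13, 16, 20, 21 and 22. The MUT EPI embryos all lie above the MUT ICM embryos, whereas the WT EPI and WT ICM embryos overlap. In PrE, embryos 1, 2, 4 and 5 of MUT had 18.9, 153, 231 and 158 CPM, and embryos 1, 2 and 3 of WT had 52.4, 3.78 and 32.1 CPM, with 0.188 CPM in WT embryo 1 when cell 7 is left out. Reads of the closely related claudin genes Cldn6 and Cldn9, and Cldn4 and Cldn3, could have been divided between copies in counting, which was not tested.

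Thinned to 1000000 counts a cell, Cldn6 was detected in 14 of 47 MUT ICM cells (29.8%, exact 95% interval 17.3 to 44.9) and in 30 of 61 WT ICM cells (49.2%, 36.1 to 62.3). As deposited these were 24 of 55 and 42 of 64 cells, and 8 MUT and 3 WT cells were too shallow to thin. At E3.75 the thinned counts were 9 of 9 MUT EPI cells, 16 of 19 WT EPI cells, 13 of 14 MUT PrE cells and 3 of 10 WT PrE cells. The intervals treat every cell of a group as independent, although cells of 1 embryo are not replicates. They therefore leave out the spread between embryos. For Cldn6, chosen on its ICM and EPI values, they are a description and no test. Copies made by PCR are not told apart here.

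Between EPI and PrE of the same stage, 0 of 8 members passed edgeR's adjusted threshold, beside 4.11% of all genes. At an unadjusted p under 0.05 it was 1 of 8, beside 15.4% of all genes. DESeq2 called 0 of 8, beside 11.1%, and limma-trend on cell means called 2 of 8, beside 4.68%. The 1 was the scaffold Tjp1. It had 15.9, 20.1, 24.7 and 0.206 CPM in MUT EPI and 81.5, 72.5, 54.1 and 40.9 CPM in MUT PrE of embryos 1, 2, 4 and 5. In WT it had 9.38, 7.04 and 18.6 CPM in EPI and 48.4, 19.05 and 14.8 CPM in PrE of embryos 1, 2 and 3. EPI was the lower in 6 of 7 embryos, the exception being WT embryo 3, whose PrE sum is a single cell. The log2 difference was -1.67 (SE 0.67, edgeR adjusted p = 0.221), and -1.72 without cell 7.

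The 2 called by limma-trend were Cldn4 and Ocln, both higher in EPI. Cldn4 had 238, 360.0, 138 and 149 CPM in MUT EPI and 9.56, 61.1, 10.2 and 16.9 CPM in MUT PrE, so that every MUT EPI embryo lay above every MUT PrE embryo. In WT it had 46.1, 113 and 108 CPM in EPI and 614, 15.3 and 96.8 CPM in PrE, and the 614 CPM of embryo 1 became 14.4 CPM without cell 7. EPI over PrE, Cldn4 differed by 1.36 in edgeR (adjusted p = 0.666), by 2.30 without cell 7 (adjusted p = 0.0625) and by 3.16 in limma-trend (adjusted p = 0.0392). Ocln had 65.1, 67.9, 38.8 and 79.3 CPM in MUT EPI and 0.306, 29.3, 44.6 and 0.177 CPM in MUT PrE. In WT it had 85.0, 21.9 and 56.6 CPM in EPI and 98.7, 2.08 and 0.383 CPM in PrE, and embryo 1 fell to 0.470 CPM without cell 7. Its difference was 1.31 in edgeR (adjusted p = 0.687), 3.37 without cell 7 (adjusted p = 0.163) and 3.03 in limma-trend (adjusted p = 0.0466). EPI was the higher in 6 of 7 embryos for Cldn4 and in 5 of 7 for Ocln. Without cell 7, EPI was the higher in WT embryo 1 as well, for both genes. Of 9 trophectoderm markers tested, 3 were higher and 6 lower in EPI, and edgeR called 2 of them lower (Id2 and Fabp3) and none higher. That fit includes cell 7, the highest of all cells in both, with 1355 CPM of Id2 and 1621 CPM of Fabp3. The part of these markers in the differences of Cldn4 and Ocln was not tested.

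**Figure D3:**
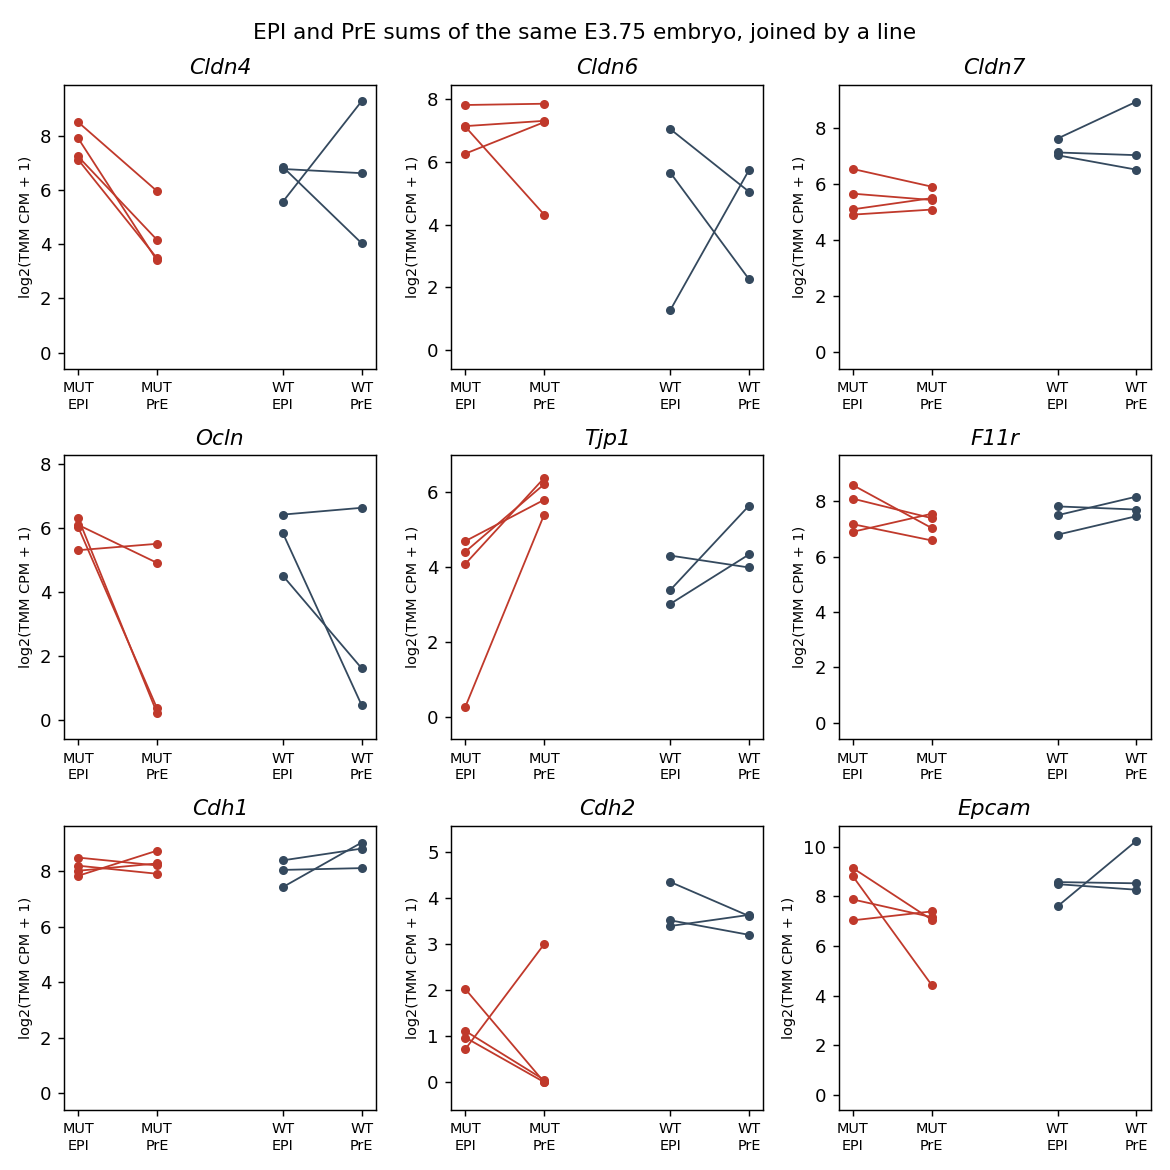
Level of each gene in the EPI and PrE sums of the same E3.75 embryo as log2(TMM CPM + 1), joined by a line, for 4 MUT (red, left) and 3 WT (grey, right) embryos. Tjp1 is lower in EPI in 6 of 7 embryos, and Cldn4 is lower in EPI only in WT embryo 1, whose PrE sum holds cell 7.

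Epcam, Cdh1, F11r, Cldn7 and Cdh2 gave EPI over PrE differences of 0.50, -0.38, 0.22, -0.14 and -0.0035 in edgeR, with adjusted p from 0.405 upwards. The interval of the Cdh1 difference runs from -0.78 to 0.01 and that of Epcam from -0.68 to 1.68, so an Epcam difference of more than 2-fold lies within its interval. Without cell 7 these 5 were 0.77, -0.33, 0.31, 0.38 and -0.10. In the lists of other junction genes, read against the 4.11% of all genes called, edgeR called 3 of 27, 2 of 18, 1 of 8 and 2 of 12. Of 27 tight junction genes tested, 1 was called higher and 2 were called lower in EPI. Jam2, a relative of F11r, averaged 295 ± 71.5 CPM in EPI and 60.3 ± 19.2 CPM in PrE (log2 difference 2.30, edgeR adjusted p = 7.02e-05). Cgnl1, paracingulin, averaged 0.856 ± 1.36 and 47.0 ± 25.5 CPM in EPI and PrE (-6.43, edgeR adjusted p = 0.00379), and the polarity gene Pard6g 0.179 ± 0.251 and 24.1 ± 18.2 CPM (-7.22, edgeR adjusted p = 0.00385).

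Of 18 cadherin, catenin and nectin genes, Plekha7, a protein of adherens junctions, was higher in EPI (4.52, edgeR adjusted p = 0.0284) and Cdh4 lower (-6.84, edgeR adjusted p = 0.0498). Of 8 desmosome genes, the desmocollin Dsc3 was higher, with 0 to 17.7 CPM in EPI embryos, against 0 to 0.0148 CPM in PrE embryos (edgeR adjusted p = 0.0344). Of 12 epithelial and mesenchymal regulators, Vim (vimentin) and Snai1, a repressor of Cdh1, were lower in EPI (-4.44 and -2.37, edgeR adjusted p = 0.0250 and 0.0298). Median log2 differences of these 4 lists were 0.14, -0.33, -0.58 and -0.45, against 0.04 over all genes. In EPI over ICM none of the 4 lists had a gene called by edgeR (7 of 28, 4 of 18, 1 of 8 and 2 of 12 at an unadjusted p under 0.05, beside 17% of all genes), and in PrE over ICM Jam2 was the 1 called (-1.56, edgeR adjusted p = 0.0225).

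Stat3 -/- embryos were set against WT in each lineage. In edgeR 0 of 8 members passed the adjusted threshold in ICM, 0 of 8 in EPI and 0 of 9 in PrE, and the background was 0% of all genes in each. At an unadjusted p under 0.05, 0 of 8 members passed in ICM beside 6.64% of all genes, 3 of 8 in EPI beside 4.63%, and 3 of 9 in PrE beside 4.63%. The 3 in PrE were Cldn4, Cldn7 and Epcam, in the fit that includes cell 7. DESeq2 called 0 of 8 beside 0.88% in ICM, 2 of 8 beside 1.52% in EPI and 2 of 9 beside 1.33% in PrE. Limma-trend on cell means called 0 of 8, 0 of 8 and 0 of 9, beside 0.0163% in ICM, 0% in EPI and 0% in PrE. In the 4 lists of other junction genes edgeR called none by genotype. At an unadjusted p under 0.05 these were 3 of 23, 1 of 15, 1 of 7 and 2 of 8 in ICM, 1 of 25, 1 of 15, 1 of 8 and 0 of 9 in EPI, and 3 of 22, 0 of 18, 0 of 6 and 2 of 7 in PrE, for tight junction, cadherin, desmosome and regulator genes in that order. MUT and WT embryos did not overlap in 0 of 8 members in ICM beside 1.55% of all genes, in 3 of 8 in EPI beside 7.59%, and in 3 of 9 in PrE beside 6.7%.

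**Figure D4:**
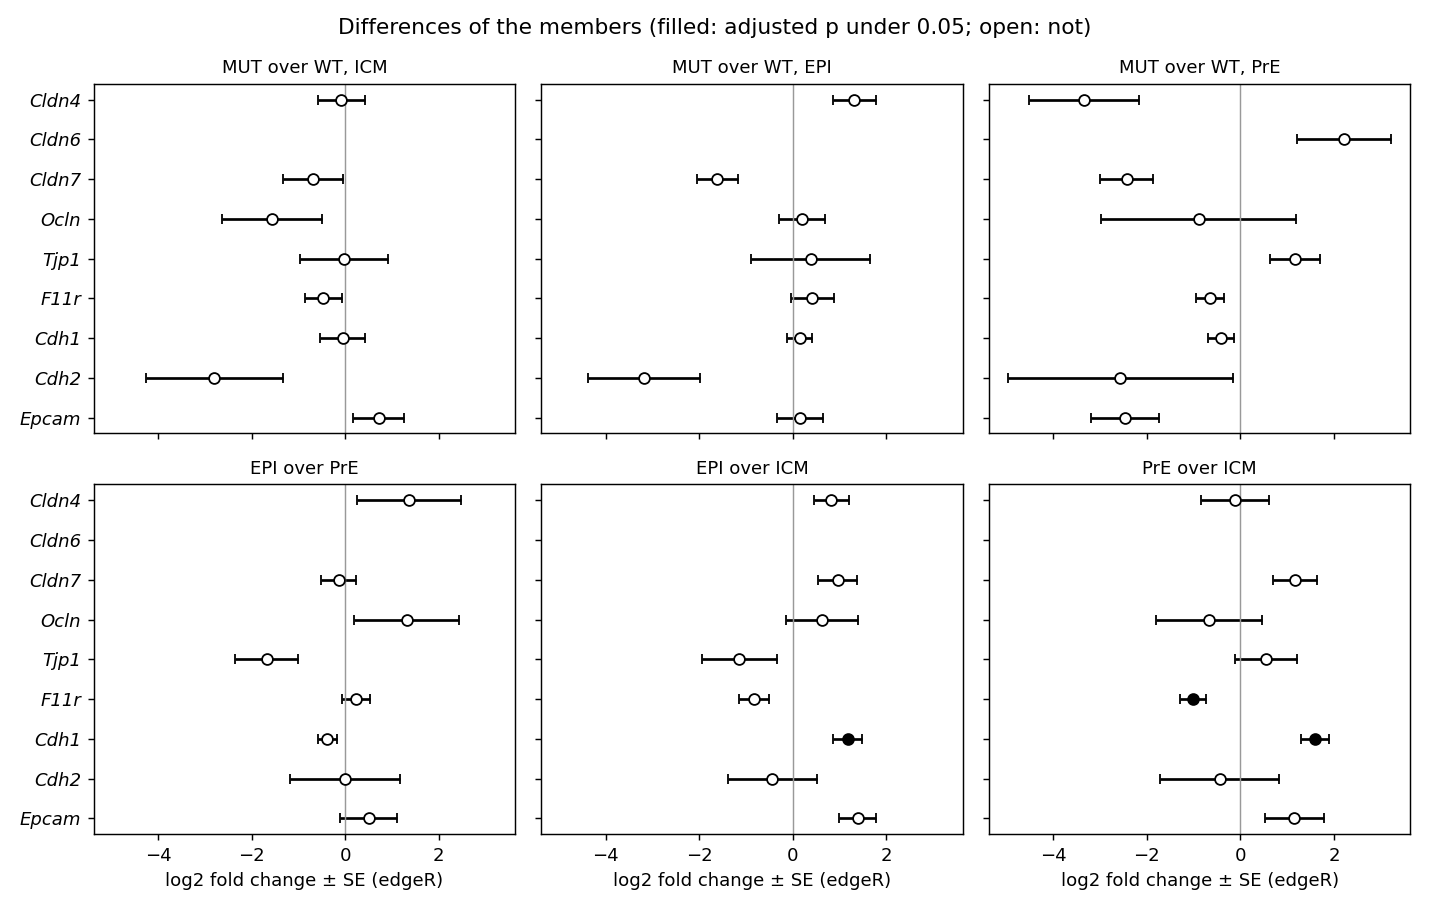
Log2 fold changes ± SE of the members from edgeR in 6 comparisons; filled points passed an adjusted p under 0.05. The 3 filled points are Cdh1 in EPI over ICM and Cdh1 and F11r in PrE over ICM, and Cldn6 is shown only between the genotypes in PrE.

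In the ICM the 8 members tested gave log2 differences from -2.80 (Cdh2) to 0.71 (Epcam), with edgeR adjusted p from 0.788 upwards. Cldn6, chosen partly on its ICM values, was not tested there. In the values given above, 4 of the 5 WT ICM embryos lay above all 5 MUT ICM embryos, and WT embryo 13 lay among them. The summed level of the 10 epiblast markers was 852 to 2120 CPM in MUT ICM and 2855 to 3999 CPM in WT ICM, without overlap, and all 10 were above 1 CPM in some embryo of both. The summed 12 endoderm markers spread over 220.3 to 4650 CPM in MUT ICM and 449.9 to 1402 CPM in WT ICM. Their part in these values was not tested.

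In EPI, Cldn7 was lower in every MUT embryo than in every WT embryo. It had 92.7, 29.2, 33.4 and 49.8 CPM in MUT embryos 1, 2, 4 and 5, against 198, 140.1 and 131 CPM in WT embryos 1, 2 and 3. The log2 difference was -1.61 (SE 0.43, edgeR adjusted p = 0.341), and DESeq2 gave -1.58 (adjusted p = 0.0490). Cdh2 had 0.955, 3.05, 1.16 and 0.647 CPM in MUT EPI and 9.49, 19.4 and 10.4 CPM in WT EPI, again without overlap. Its difference was -3.17 (SE 1.20, edgeR adjusted p = 0.855), and -3.12 in DESeq2 (adjusted p = 0.0456). Cldn4 was the reverse, higher in every MUT EPI embryo than in every WT EPI embryo, with a difference of 1.31 (SE 0.45, edgeR adjusted p = 0.7098). It was 0.41 with the title letter as a covariate, and Cldn7 was -1.65. Only letter A holds both genotypes, so these values set MUT embryos 4 and 5 against WT embryo 3 alone. Ocln, Tjp1, F11r, Cdh1 and Epcam overlapped between the genotypes in EPI, with differences from 0.15 to 0.42, and Cldn6 overlapped too.

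In PrE, Cldn7 had 59.5, 33.2, 44.5 and 42.4 CPM in MUT embryos 1, 2, 4 and 5, against 496, 131 and 91.1 CPM in WT embryos 1, 2 and 3. Without cell 7, WT embryo 1 held 84.2 CPM, which still lies above all MUT embryos. The log2 difference was -2.43 (SE 0.57, edgeR adjusted p = 0.819; DESeq2 adjusted p = 0.00459), and -1.21 without cell 7. Epcam had 20.6, 142, 167 and 132 CPM in MUT PrE, against 1203, 306 and 367 CPM in WT PrE, where embryo 1 held 497 CPM without cell 7. The groups did not overlap either way, and the difference was -2.47 (SE 0.72, edgeR adjusted p = 0.940; DESeq2 adjusted p = 0.0177), or -1.79 without cell 7. Cldn4 differed by -3.34 (SE 1.18, edgeR adjusted p = 0.975) and by -0.83 without cell 7, a change of more than 1.5 times, and its groups overlapped. With the title letter as a covariate, Cldn7 was -1.12 and Epcam -1.35 in edgeR. That fit compares the genotypes within letter A alone, MUT embryos 4 and 5 against WT embryo 3, a single cell. Cldn6 differed by 2.22 (SE 1.01, edgeR adjusted p = 0.99999) and by 3.503 without cell 7, with overlapping groups.

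The third member without overlap in PrE was Cdh2, with 0, 0, 0.0354 and 6.99 CPM in MUT embryos 1, 2, 4 and 5, against 11.4, 11.2 and 8.19 CPM in WT embryos 1, 2 and 3. The 2 zeros and the 0.0354 CPM stand for 0, 0 and 2 counts. Its difference was -2.56 (SE 2.40) with an edgeR adjusted p of 0.99999, and -2.79 without cell 7. In thinned cells, Cdh2 was detected in 2 of 14 MUT PrE cells (14.3%) and 8 of 10 WT PrE cells (80.0%), in 3 of 9 MUT EPI cells (33.3%) and 16 of 19 WT EPI cells (84.2%), and in 16 of 47 MUT ICM cells (34.0%) and 35 of 61 WT ICM cells (57.4%). As deposited it was detected in 7 of 14, 10 of 10, 6 of 9, 18 of 19, 25 of 55 and 45 of 64 of these cells. Ocln changed its sign with 1 cell, at -0.89 with cell 7 and 4.21 without it, and neither passed.

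The summed epiblast markers were 622 to 671 CPM in MUT PrE and 746 to 2377 CPM in WT PrE, or up to 3220 CPM in WT PrE without cell 7, and did not overlap between the genotypes. Of the 10, 8 were lower and 2 higher in MUT PrE, with a median log2 difference of -0.92 against 0.03 over all genes, 0 called by edgeR and 3 at an unadjusted p under 0.05. Fgf4 was under 1 CPM in every MUT PrE sum, and Fgf4 and Prdm14 were so in every WT PrE sum. Their part in the member differences was not tested. Of 8 trophectoderm markers tested between the genotypes in PrE, 7 were lower and 1 higher in MUT. Their median log2 difference was -1.36 against 0.03 over all genes, in a fit that includes cell 7. Of these 8, edgeR called 0, and 0 had an unadjusted p under 0.05. The summed 13 markers overlapped and spanned 344 to 1931 CPM in MUT PrE and 413 to 5293 CPM in WT PrE, with a highest WT value of 836 CPM without cell 7. Of the 13, Cdx2, Gata3, Krt7, Krt19 and Elf5 were under 1 CPM in every MUT PrE sum. In WT PrE no marker was under 1 CPM in every sum, but Cdx2 was at 0, 0.0408 and 0 CPM without cell 7. Embryo sex differed with genotype at E3.75, and adding it as a covariate gave -1.07 for Cldn7 and -1.72 for Epcam in PrE, and -1.35 for Cldn7 in EPI. Of the WT embryos only embryo 3 was male, so these values set the MUT embryos against that embryo alone, a single cell in PrE.

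Whether the genotype difference itself varied was tested as an interaction for the 8 members other than Cldn6. In edgeR 0 of 8 passed for lineage by genotype, 0 of 8 for EPI stage by genotype and 0 of 8 for PrE stage by genotype, with a background of 0% of all genes in each. At an unadjusted p under 0.05 the counts were 2 of 8 beside 5.51%, 0 of 8 beside 9.25% and 2 of 8 beside 9.2%. DESeq2 called 1 of 8 beside 2.4%, 0 of 8 beside 3.29% and 1 of 8 beside 3.62%, and limma-trend called 0 of 8 in each beside 0%, 0.0127% and 0%. The smallest p between the lineages was that of Cldn4, whose EPI minus PrE difference was larger in MUT than in WT by 4.61 on the log2 scale (SE 1.35, edgeR adjusted p = 0.719; DESeq2 adjusted p = 0.00972). Without cell 7 it was 2.12 (edgeR adjusted p = 0.910). Cldn4 also had the smallest p for EPI against ICM, at 1.37 (edgeR adjusted p = 0.578). Epcam had it for PrE against ICM, at -3.16 (SE 0.93, edgeR adjusted p = 0.359; DESeq2 adjusted p = 0.0233), and -2.51 without cell 7 (edgeR adjusted p = 0.432).

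The positions of the 9 genes in mm10, from GENCODE vM21, are as follows. F11r lies at chr1:171437535-171464603, Cldn4 at chr5:134945119-134946934, Tjp1 at chr7:65296165-65527781, Cdh1 at chr8:106603351-106670246 and Cldn7 at chr11:69964779-69967885. Ocln lies at chr13:100496507-100552718, Cldn6 at chr17:23679249-23682446, Epcam at chr17:87635979-87651129 and Cdh2 at chr18:16588877-16809246. All are protein-coding, and none shares exon bases with another annotated gene. Tjp1 overlaps 3 annotated genes and Cdh2 the antisense gene Gm15485, without shared exon bases.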

How the data were processed

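The authors deposited whole-number counts per gene with 1 column a cell and no normalization. STAR, HTSeq and mm10 are named, per the submitters' processing notes; the sources used here give neither versions, counting and strand settings nor the library method. Of 49671 rows, 49412 matched GENCODE vM21 or the supplied name tables, and the 259 others held 0.0101% of the counts. Raw counts of an embryo's cells were summed within each lineage, and no cell was removed. Each comparison used only the sums it is about, over all genes, with edgeR 4.0.16 in R 4.3.3 (quasi-likelihood test, TMM, filterByExpr with a minimum count of 10, robust), with Benjamini-Hochberg adjustment at 0.05; stage and lineage fits had genotype as a covariate. The SE is the log2 fold change over the root of its F. DESeq2 1.42.0 and limma 3.58.1 (embryo means of log2(CPM + 1) per cell), other filters and scalings, embryo sex, title letter, a replicate block and leaving out each embryo were alternatives. Cldn6 was left untested between genotypes in ICM and EPI, whose values chose it. The refit without cell 7 was chosen after the data were seen. Scripts were tested on simulated data. Summaries used Python 3.11.15.

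The members and gene lists were chosen with earlier results of these data known. Named genes are the 9 members, Stat3, up to 4 called genes of each list in a comparison (smallest adjusted p first; some are given as counts only), and the 2 genes most like each member. EPI and PrE sums of 1 embryo pair by the title's embryo number: their deviations from the group means correlated at 0.0421 to 0.144 over 7 embryos.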

Additional observations from a re-analysis of the deposited data

Results flagged for a closer look

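In 4 of 36 sets of embryos tested, 1 embryo stood apart from the others of its group by Dixon's criterion. Normally distributed values meet it by chance in about 1 in 20 groups. The criterion was taken on CPM without logs, so that rate need not hold here, and all 4 embryos were the highest of their group. Cldn4 was 61.1 CPM in MUT PrE embryo 2, where the others held 9.56 to 16.9 CPM. Cldn7 was 121 CPM in WT ICM embryo 22, where the others held 32.3 to 47.7 CPM. Ocln was 204 CPM in WT ICM embryo 16, where the others held 17.1 to 65.4 CPM. Cdh2 was 6.99 CPM in MUT PrE embryo 5, where the others held 0 to 0.0354 CPM.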

How the results depend on the processing

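Of 1021 refits of 52 member results, 899 kept direction and side of the threshold, 38 lost a call, 18 gained one and 66 changed sign, the last in 21 results; shares of cells kept within their intervals at 500000 counts a cell. The cause of these changes was not tested. Log2 values follow. With RLE scaling, Cldn4, Tjp1 and Cdh1 in ICM by genotype became 0.030, 0.039 and 0.0021, and Cdh2 in EPI over PrE 0.025. DESeq2 gave 0.030, 0.039 and 0.0021 for the same 3 in ICM. It called 108, 187 and 157 genes by genotype in ICM, EPI and PrE (0, 2 and 2 members), 1573 in EPI over PrE, 1581 in EPI over ICM (2 members), 2069 in PrE over ICM, and 341, 518 and 565 in the lineage, EPI stage and PrE stage interactions (1 member in the first and 1 in the last). Without the filter, 3 genes were called in ICM, 4 in the PrE stage interaction, and 0 and 1 members in EPI and PrE over ICM.

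Limma-trend called 2 genes in ICM and 2 in the EPI stage interaction, 2 members in EPI over PrE, 3697 genes (5 members) in EPI over ICM and 3350 (4 members) in PrE over ICM. It gave 0.58 and 0.054 for Tjp1 and Cdh1 in ICM, 0.85 for Ocln in PrE, 0.15 and 0.53 for Cldn7 and Cdh2 in EPI over PrE, 0.29 and 0.60 for Tjp1 and Cdh2 in EPI over ICM and 0.086 for Cdh2 in PrE over ICM. Without shallow cells, 1 gene was called in ICM and 0 members in EPI over ICM. Embryo sex as a covariate gave 0.38 and 0.33 for Cldn4 and Tjp1 in ICM, -0.29, -0.24 and -0.15 for Tjp1, Cdh1 and Epcam in EPI, and 5.54 for Ocln in PrE, where 217 genes were called. With the title letter, voom called 682 genes in ICM (Tjp1 1.07). At E3.75 edgeR with the letter gave -0.58, -0.46, -0.12 and -0.13 for Tjp1, F11r, Cdh1 and Epcam in EPI and 5.81 for Ocln in PrE. There both sex and letter leave WT embryo 3 as the only WT embryo compared, a single cell in PrE. Without cell 7, Ocln in PrE was 4.21 and Cldn7 in EPI over PrE 0.38.

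With the embryo as a replicate block, EPI over PrE had 358 called genes, against 584 without it, and Cdh2 was 2.01. That block changed no member's call. A block on embryo number called 0 genes by genotype in EPI and PrE. It pairs MUT and WT embryos 1 and 2 by their number alone, and MUT embryos 4 and 5 and WT embryo 3 have no partner. It is therefore no check of the genotype results. In MUT alone, 177 genes were called in EPI over PrE (Cldn7 0.21), 8 in EPI over ICM and 61 in PrE over ICM (Epcam -0.46), with 0 members in both stage comparisons. In WT alone, 4, 43 and 46 genes were called; Cldn4, F11r, Cdh2 and Epcam in EPI over PrE were -1.43, -0.38, 0.35 and -1.005, Ocln in EPI over ICM was -0.35 with 0 members called, and Cldn4 and Tjp1 in PrE over ICM were 1.4799 and -0.14. Without sums of 1 cell, 204 genes (0 members) were called in EPI over ICM, 342 (1 member) in PrE over ICM and 1 in the PrE stage interaction.

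Leaving out 1 embryo gave 0 to 1 genes called in ICM and in the PrE stage interaction, 233 to 509 in EPI over PrE, 99 to 639 (0 to 1 members) in EPI over ICM and 297 to 1057 (1 to 2 members) in PrE over ICM. The lowest of the 3 counts arose without WT embryo 2 of E3.75, and the highest of the last 2 without MUT embryo 10. By genotype, Cldn4, Tjp1 and Cdh1 ranged over -0.27 to 0.18, -0.57 to 0.31 and -0.31 to 0.20 in ICM, Ocln, Cdh1 and Epcam over -0.19 to 0.68, -0.077 to 0.38 and -0.20 to 0.42 in EPI, and Ocln over -1.80 to 3.88 in PrE. Cldn7, F11r and Cdh2 ranged over -0.35 to 0.23, -0.058 to 0.39 and -0.49 to 3.21 in EPI over PrE, Cdh2 over -0.72 to 0.18 in EPI over ICM, and Cldn4 and Cdh2 over -1.25 to 0.20 and -2.58 to 0.19 in PrE over ICM. The low members Cdh2, Ocln and Tjp1 rest on few counts or few cells in some sums, which limits their precision.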

Other observations

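Over the 24 sums, the genes whose log2(TMM CPM + 1) ran most like that of a member, among 16521 genes compared, were as follows. Cdh1 ran with Egr1 (Pearson r 0.90) and Ptp4a1 (0.88), F11r with Gm9169 (0.85) and Gm6051 (0.77), and Cldn7 with Tmsb10 (0.81) and Lepr (0.76). Cldn6 ran with Arglu1 (0.75) and Gm13493 (0.75), Ocln with Fryl (0.75) and Plxnb2 (0.74), and Epcam with Atp13a2 (0.74) and Scamp5 (0.71). Cdh2 ran with Ly6g6d (0.73) and Zfp975 (0.72), Cldn4 with AU020206 (0.70) and Smpdl3b (0.68), and Tjp1 with Parp8 (0.70) and Cdc25c (0.70). Between members, r was highest for Cldn6 and Cdh1 (0.65) and lowest for F11r and Cdh1 (-0.56). Cldn6 was chosen on its EPI and ICM values, which enter every r given for it. These are descriptions: sums share stage, title letter, depth and, at E3.75, embryos.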
